A study of Ursus arctos with 12 samples.

Results

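The aminoacyl-tRNA synthetases, the enzymes that attach each amino acid to its own transfer RNA, were examined at the mRNA level in the vastus lateralis, a thigh muscle, of brown bears in winter and in summer. The members were the genes whose symbol follows the naming of this family, together with AIMP1 and AIMP2, which scaffold several of these enzymes, and which had 30 or more reads summed over all libraries. This gave 39 genes out of 30249 in the count table, and 39 of the 39 genes with a matching symbol passed the read minimum. They comprise 21 cytosolic synthetase genes, 16 mitochondrial ones and the 2 scaffold genes. The rule uses gene symbols and the read minimum, and no season difference is part of it.

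The samples were biopsies of free-ranging Ursus arctos aged 2 to 3 years, and season was the only condition compared. Each of the 6 bears (1305, 1316, 1317, 1509, 1511 and 1512) gave a library while hibernating in winter and another while active in summer, 12 libraries of poly-A RNA in all. Hibernation, fasting, inactivity and a lower body temperature come together in winter and cannot be told apart here. The comparison asks which synthetase mRNAs differ between hibernating and active muscle.

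A synthetase reads the identity of a tRNA and loads it with the matching amino acid, and the loaded tRNA then delivers that amino acid to the ribosome. Muscle keeps separate sets of these enzymes, for the ribosomes of the cytosol and for the ribosomes inside mitochondria, which make a few subunits of the respiratory chain, and the nucleus encodes both sets. Most amino acids have a gene for each compartment, whereas KARS (lysine) and GARS (glycine) each serve both. In the counts and sums here KARS and GARS are entered as cytosolic genes only. In the cytosol a subset of synthetases is bound in the multi-synthetase complex, held together by AIMP1, AIMP2 and EEF1E1.

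Libraries held 20191068 to 27283155 reads in summer and 16742406 to 32140160 in winter. Of 17290 genes tested over the whole table, 19.6% were called higher in winter and 19.9% lower at an adjusted p below 0.05 (edgeR quasi-likelihood test, Benjamini-Hochberg), the threshold used for every call here, and their median log2 fold change was −0.00. Season separated the libraries on the leading principal component (41.5% of the variance). The winter library of bear 1509 stood apart on the next component (14.6%), at −98.6 against 6.35 to 23.1 for the other winter libraries. Without bear 1509 the counts of calls were 3 higher and 3 lower among cytosolic synthetases, 1 higher and 7 lower among mitochondrial ones and 2 lower among scaffolds, the same numbers as with this bear. Over all 16764 genes of that fit, 3195 were called higher and 3300 lower. The cytosolic genes called lower were not all the same. RARS lost its call (adjusted p = 0.0732) and TARS gained one (0.0407).

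Marker genes of muscle fibres were abundant in every library, at a summed 104306 to 179713 CPM (counts of a gene scaled to a fixed library size) in summer and 110268 to 145760 in winter, with 1 of 7 tested markers higher (TTN) and 2 lower (ACTA1 and MB). MYH1, MYH2 and MYH7 were not analysed here. Fibroblast markers summed to 4176 to 11269 CPM in summer against 269 to 1623 in winter (4 of 6 lower), and endothelial markers to 577 to 916 against 381 to 449 (4 of 5 lower). Macrophage markers were scarce, at 34.4 to 65.9 against 19.6 to 42.5 CPM (2 of 5 lower). Adipocyte markers ranged from 16.4 to 486 against 8.27 to 183 CPM (1 of 4 higher, LEP at 0 in some libraries) and Schwann cell markers from 8.43 to 28.3 against 3.02 to 119 CPM (0 of 4 called, SOX10 at 0 in some). In a whole biopsy, fewer cells of a type and less RNA per cell cannot be told apart. The part of these cell type differences in the synthetase results was not tested.

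Among the 39 genes, 4 were called higher in winter (10.3%) and 12 lower (30.8%), beside 19.6% and 19.9% of all genes, and their median log2 fold change was −0.22. The calls were spread unevenly over compartments. Cytosolic synthetases moved in both directions, with 3 of 21 higher and 3 lower (14.3% each) and a median of 0.07. Of the 16 mitochondrial synthetases, 7 were lower (43.8%) and 1 was higher (6.25%), with a median of −0.43 and a range of −1.18 to 0.44. Both scaffold genes were lower. The genes differ in depth, and 7 of the 16 mitochondrial genes stayed under 200 reads in every library, against 0 of the 21 cytosolic genes. Standard errors of the log2 fold change ran from 0.10 to 0.23 among mitochondrial and from 0.08 to 0.14 among cytosolic genes.

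**Figure D1:**
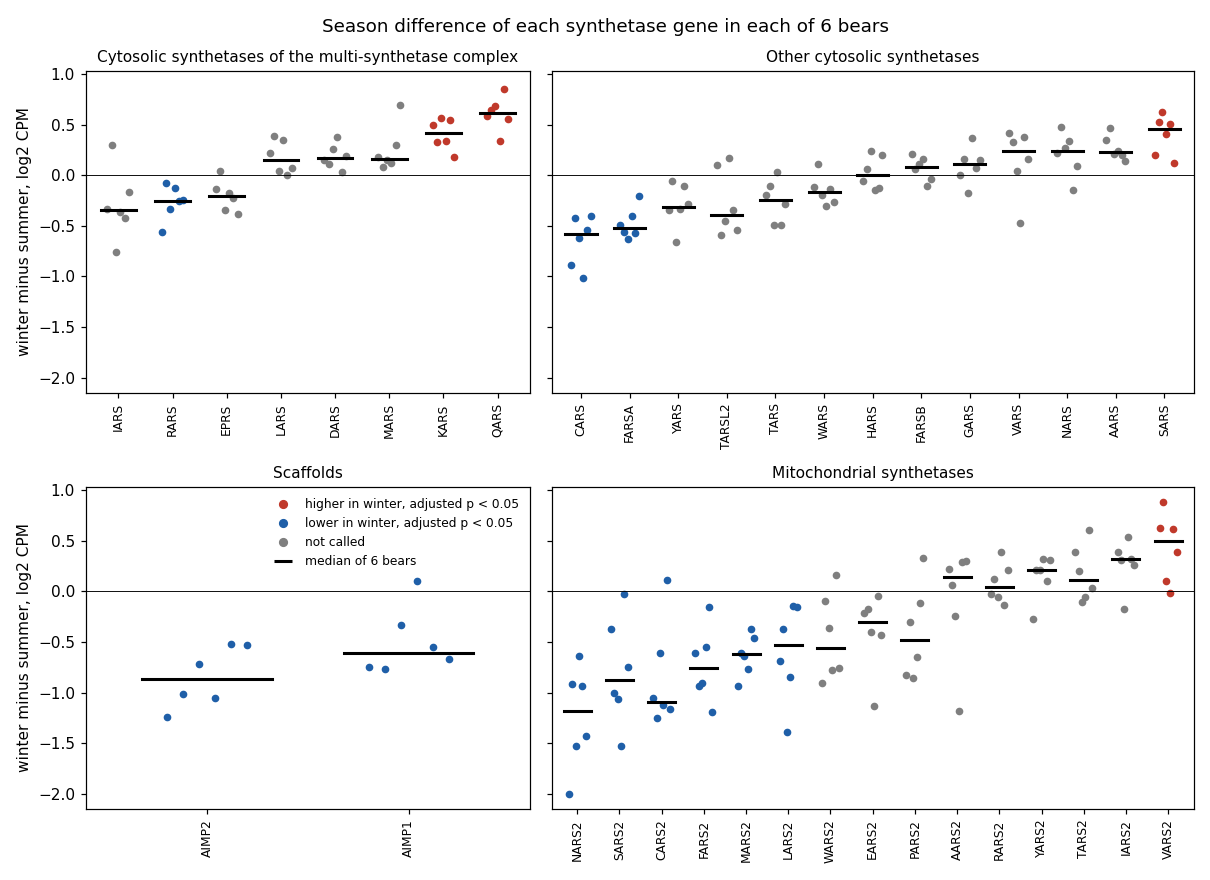
Winter minus summer difference of each gene in each of 6 bears, on the log2 CPM scale (y axis), with genes on the x axis in 4 panels by role. Points are bears, bars are medians and colours show the call at an adjusted p below 0.05. The panel of mitochondrial genes shows 15 of the 16, and those from NARS2 to LARS2 lie below 0 in most bears, and the cytosolic genes scatter on both sides of 0.

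Other call rules were applied to the same genes. At an adjusted p below 0.01 with a fold change above 1.3 or below 0.77, 3 members were higher and 11 lower, beside 12% and 12% of all genes. The seasons did not overlap in any library for 2 members higher in winter (QARS and KARS) and 4 lower (CARS, FARSA, MARS2 and AIMP2), beside 9.12% and 8.21% of all genes. In 6 of 6 bears, 7 members were higher in winter, a share near the 18.4% of all genes, and 11 lower, beside 19.0%. Each animal gave a sample in either season, and a fit with a replicate block for the bear called 5 members higher and 12 lower, beside 19.6% and 21.2%. Under that block RARS lost its call (adjusted p = 0.0537), YARS gained a call as lower (0.0474) and AARS a call as higher (0.0417).

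The synthetases of the multi-synthetase complex comprised 8 genes, of which 2 rose, 1 fell and 5 were not called, with a median log2 fold change of 0.18. QARS, which loads glutamine, had 6.18, 6.32 and 6.52 log2 CPM (lowest, median and highest library) in summer and 6.53, 6.98 and 7.19 in winter. Every winter library lay above every summer library, although the winter library of bear 1509 exceeded the summer library of bear 1316 by less than 0.05 log2 units. QARS rose 1.54-fold (log2 fold change 0.62, SE 0.12, adjusted p = 0.00102), and all 6 bears had more in winter, by 0.34 to 0.85.

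KARS, which loads lysine in the cytosol and, from the same gene, in mitochondria, had 9.73, 9.96 and 10.06 log2 CPM in summer and 10.24, 10.34 and 10.45 in winter. The seasons did not overlap and all 6 bears were higher in winter, by 0.18 to 0.57. The rise was 1.32-fold (log2 fold change 0.40, SE 0.10, adjusted p = 0.00497). RARS, the arginine enzyme, fell by 0.27 on the log2 scale (SE 0.10, adjusted p = 0.0494) and was lower in 6 of 6 bears, with overlapping seasons. That call was the closest to the threshold among the members. It was also lost under RLE normalization (0.0543), under DESeq2 with the bear block (0.0607), without the read minimum (0.0603) and when bear 1305, 1317, 1509, 1511 or 1512 was left out (0.147, 0.117, 0.0732, 0.0944 and 0.0699).

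The remaining 5 genes of the complex were not called. MARS (methionine), LARS (leucine) and DARS (aspartate) had log2 fold changes of 0.25, 0.17 and 0.18, each above 0 in 6 of 6 bears. MARS had an adjusted p of 0.0559, and was called higher by DESeq2 (0.0284) and under RLE normalization (0.0488). EPRS, which carries the glutamate and proline activities in a fused protein, and IARS (isoleucine) had −0.22 and −0.32, each below 0 in 5 of 6 bears. Bear 1316 was above 0 for both. Its summer library had the lowest summer level of each gene, 6.71 log2 CPM for EPRS and 5.58 for IARS, and its winter library the lowest winter level of EPRS, 6.75. Without bear 1316, EPRS and IARS were called lower (adjusted p = 0.0398 and 0.0118).

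The scaffold AIMP2, which links the synthetases inside the complex, had 5.57, 5.73 and 5.89 log2 CPM in summer and 4.45, 4.84 and 5.25 in winter. No winter library reached the lowest summer library, and the lowest winter level was that of bear 1305. AIMP2 was 1.78-fold lower (log2 fold change −0.83, SE 0.12, adjusted p = 0.000174) in 6 of 6 bears. The scaffold AIMP1, which binds tRNA and the arginine and glutamine enzymes, had 5.36, 5.47 and 5.77 log2 CPM in summer and 4.84, 4.95 and 5.46 in winter. The winter library of bear 1509 reached the summer levels, whereas the other 5 winter libraries, at 5.04 or less, lay below all summer libraries. AIMP1 fell by 0.49 on the log2 scale (SE 0.12, adjusted p = 0.0057), and by 0.61 without bear 1509 (adjusted p = 0.000847). EEF1E1, the remaining auxiliary protein of the complex, had a log2 fold change of 0.02 (SE 0.14, adjusted p = 0.908), with 3 of 6 bears above 0.

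Within each bear, AIMP2 was set against other components of the complex as a description, with gene pairs chosen after their values were seen. The change of QARS exceeded that of AIMP2 in 6 of 6 bears, by a median of 1.40 log2 units, and the change of KARS exceeded it by 1.31 in 6 of 6. The change of AIMP2 lay below that of EEF1E1 by a median of 0.79 in 6 of 6 bears, with a range of −1.27 to −0.35. The reads of AIMP1 and AIMP2 together were 94.4 to 107 CPM of the library total in summer and 53.2 to 78.4 in winter, lower in 6 of 6 bears. Cytosolic synthetases as a sum took 2061 to 2605 CPM of the library total in summer and 2405 to 2803 in winter. This sum was higher in 4 bears and lower in 2. Sums of this kind lack the normalization applied to the levels of single genes, and their directions by bear may differ on that scale.

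**Figure D2:**
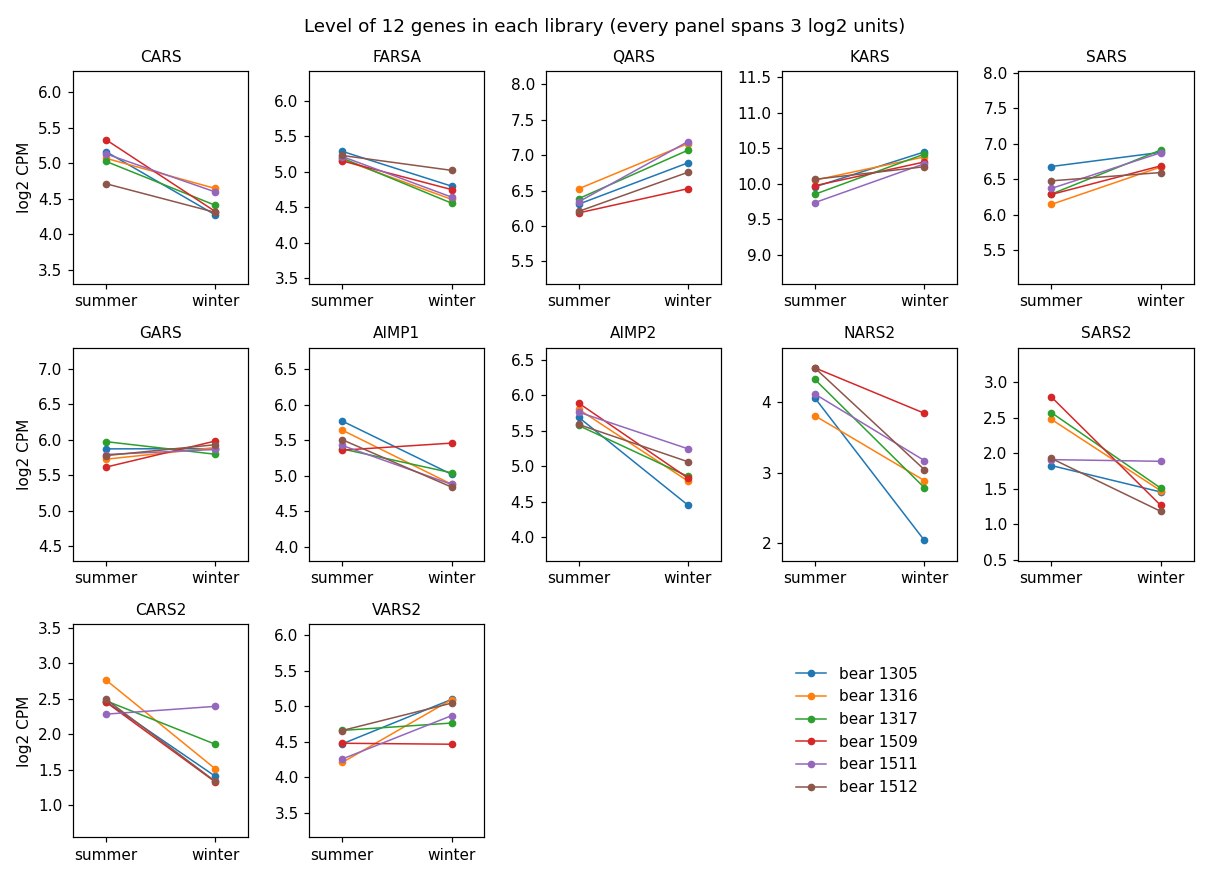
Level of 12 genes in log2 CPM (y axis, every panel spanning 3 log2 units) in summer and winter (x axis), with a line for each of 6 bears. The lines of AIMP2, CARS and FARSA descend and those of QARS and KARS ascend in all bears, whereas those of GARS cross.

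Outside the complex, 13 cytosolic genes had a median log2 fold change of 0.03. They gave 1 call higher (7.69%, beside 19.6% of all genes), 2 lower (15.4%, beside 19.9%) and 10 not called. SARS, the serine enzyme, which also loads the tRNA that carries selenocysteine, had 6.15, 6.33 and 6.68 log2 CPM in summer and 6.60, 6.78 and 6.91 in winter. Only the summer library of bear 1305 rose above the lowest winter library, and all 6 bears were higher in winter. SARS rose 1.31-fold (log2 fold change 0.39, SE 0.10, adjusted p = 0.00842). Over the alternatives its adjusted p ranged from 0.00133 to 0.0433.

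CARS, the cysteine enzyme, had 4.71, 5.10 and 5.33 log2 CPM in summer and 4.27, 4.36 and 4.64 in winter, without overlap. Its decrease was the largest among cytosolic genes, 1.57-fold (log2 fold change −0.66, SE 0.11, adjusted p = 0.000571), and ranged from −1.01 in bear 1509 to −0.40 in bear 1512. FARSA, the catalytic subunit of the cytosolic phenylalanine enzyme, had 5.15, 5.20 and 5.29 log2 CPM in summer and 4.56, 4.69 and 5.02 in winter, also without overlap. FARSA fell by 0.47 on the log2 scale (SE 0.09, adjusted p = 0.00126) in 6 of 6 bears. FARSB encodes the other subunit of that enzyme and had a log2 fold change of 0.07 (SE 0.10, adjusted p = 0.597). As a description chosen after the values were seen, the change of FARSA lay below that of FARSB in 6 of 6 bears, by a median of 0.59 log2 units.

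GARS, which loads glycine in both compartments, had 5.62, 5.79 and 5.98 log2 CPM in summer and 5.80, 5.88 and 5.98 in winter. The winter levels lay inside the summer range apart from a margin of less than 0.05. Its log2 fold change of 0.09 (SE 0.08, adjusted p = 0.382) was above 0 in 5 of 6 bears and was not called in any alternative (adjusted p from 0.186 to 0.936). Thus KARS and GARS, the genes that serve both compartments, gave a rise and no call, respectively, and the difference between them was not tested.

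The 15 cytosolic genes without a call had log2 fold changes of −0.32 to 0.27, with 6 below 0 and 9 above. AARS (alanine, 0.27, adjusted p = 0.0607) was higher in 6 of 6 bears and was called by DESeq2 with and without the bear block (0.0208 and 0.0418). YARS (tyrosine, −0.30, adjusted p = 0.0558) was lower in 6 of 6 bears and was called by DESeq2 (0.0478). The threonine enzymes TARS and TARSL2, the latter a further cytosolic form, had −0.25 and −0.26, and WARS (tryptophan) had −0.15. TARS was called lower by DESeq2 (0.0485) and without bear 1509 (0.0407). NARS (asparagine), VARS (valine) and HARS (histidine) had 0.22, 0.16 and 0.03. At standard errors of 0.08 to 0.14, smaller season differences in these genes were not detectable at this depth and number of bears.

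Mitochondrial synthetases supply the organelle's own ribosomes. In each bear the median change over the 16 genes lay below 0, from −0.65 in bear 1509 to −0.03 in bear 1511, while the same median over the 21 cytosolic genes ran from −0.11 to 0.12. The number of mitochondrial genes with a lower winter level was 14 of 16 in bear 1317 and 9 of 16 in bears 1511 and 1512. No test of the group as a whole was made.

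NARS2, the mitochondrial asparagine enzyme, showed the largest difference of all members. It had 3.80, 4.21 and 4.47 log2 CPM in summer and 2.05, 2.96 and 3.83 in winter. Only the winter library of bear 1509 entered the summer range, and that of bear 1305 was the lowest. The decrease was 2.26-fold (log2 fold change −1.18, SE 0.23, adjusted p = 0.00141), present in 6 of 6 bears from −2.0 to −0.64, and the adjusted p stayed at 0.00913 or less over the alternatives.

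SARS2, the mitochondrial serine enzyme, had 42 to 156 reads per library, so its levels carry more counting error. It had 1.83, 2.20 and 2.79 log2 CPM in summer and 1.18, 1.46 and 1.89 in winter. The winter library of bear 1511 overlapped the summer range. SARS2 fell by 0.84 (SE 0.21, adjusted p = 0.00537) in 6 of 6 bears, although bear 1511 differed by only −0.02. CARS2, the mitochondrial cysteine enzyme, had 2.29, 2.47 and 2.77 log2 CPM in summer and 1.33, 1.46 and 2.40 in winter. Bear 1511 was again apart, at 0.11 higher in winter, and the other 5 winter libraries lay below all summer libraries. CARS2 fell by 0.82 (SE 0.20, adjusted p = 0.00447), and by 1.05 without bear 1511.

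Further mitochondrial genes with a call as lower were FARS2 (phenylalanine), MARS2 (methionine) and LARS2 (leucine), each lower in 6 of 6 bears. FARS2 fell by 0.70 on the log2 scale (SE 0.15, adjusted p = 0.00259). MARS2 fell by 0.64 (SE 0.14, adjusted p = 0.0026), and its 6 winter libraries, at 2.17 to 2.69 log2 CPM, lay below the 6 summer libraries, at 2.88 to 3.44. LARS2 fell by 0.63 (SE 0.17, adjusted p = 0.0099), with the largest difference in bear 1317 (−1.39). Without bear 1317 the decrease of LARS2 was 0.46 and the adjusted p was 0.0501.

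VARS2, the mitochondrial valine enzyme, was the only mitochondrial gene called higher. It had 4.21, 4.47 and 4.66 log2 CPM in summer and 4.46, 4.95 and 5.09 in winter. The winter library of bear 1509 fell inside the summer range, and this bear differed by −0.01, whereas the other 5 bears were higher in winter. VARS2 rose 1.36-fold (log2 fold change 0.44, SE 0.13, adjusted p = 0.0137). The call was lost with library totals as scaling (0.0583) and without bear 1305 (0.0553) or bear 1316 (0.0613).

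The 8 mitochondrial genes without a call had log2 fold changes of −0.45 to 0.27, with 4 below 0 and 4 above. WARS2 (tryptophan), EARS2 (glutamate) and PARS2 (proline) had −0.45, −0.42 and −0.39, at adjusted p of 0.0525, 0.0667 and 0.117. WARS2 was called lower by DESeq2 (0.0374), with library totals (0.0299) and without bear 1511 (0.0255). EARS2 was called lower with library totals (0.0393). AARS2 (alanine) had −0.03, with bear 1509 at −1.18 and 4 of 6 bears above 0. IARS2 (isoleucine), TARS2 (threonine), YARS2 (tyrosine) and RARS2 (arginine) had 0.27, 0.18, 0.15 and 0.09. IARS2 was called higher by DESeq2 (adjusted p = 0.0452) and without bear 1317 (0.0302). Summed over the 16 genes, mitochondrial synthetases took 302 to 477 CPM of the library total in summer and 298 to 408 in winter. The sum was higher in 4 bears and lower in 2, without the normalization applied to the levels of single genes. The sum is on another scale than the median of the genes, and it also weights each gene by its reads. It did not follow the direction of that median, and the reason was not tested. IARS2, with 3042 to 7246 reads per library, contributed the most reads to the sum.

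For 16 amino acids both a cytosolic and a mitochondrial gene were present, with EPRS entered for glutamate and for proline. The change of the cytosolic gene was set against that of its mitochondrial counterpart within each bear, as a description without a test. The cytosolic gene moved up relative to the mitochondrial gene in 6 of 6 bears for 5 amino acids, among them asparagine, serine, methionine and leucine. The median difference between these changes was 1.46 log2 units for asparagine (0.79 to 2.22 over bears), 1.20 for serine, 0.84 for methionine and 0.83 for leucine. It moved down in 6 of 6 bears for 4 amino acids, at −0.65 for isoleucine, −0.43 for tyrosine, −0.37 for arginine and −0.23 for valine. Directions were mixed among bears for the remaining 7.

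Serine was the only amino acid whose genes were called in opposite directions, SARS higher and SARS2 lower. Cysteine and phenylalanine had both genes called lower (CARS with CARS2 and FARSA with FARS2). For 5 amino acids only the mitochondrial gene was called, for arginine only the cytosolic gene, and for 7 neither. A gene called beside a partner without a call is not thereby shown to differ from it.

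**Figure D3:**
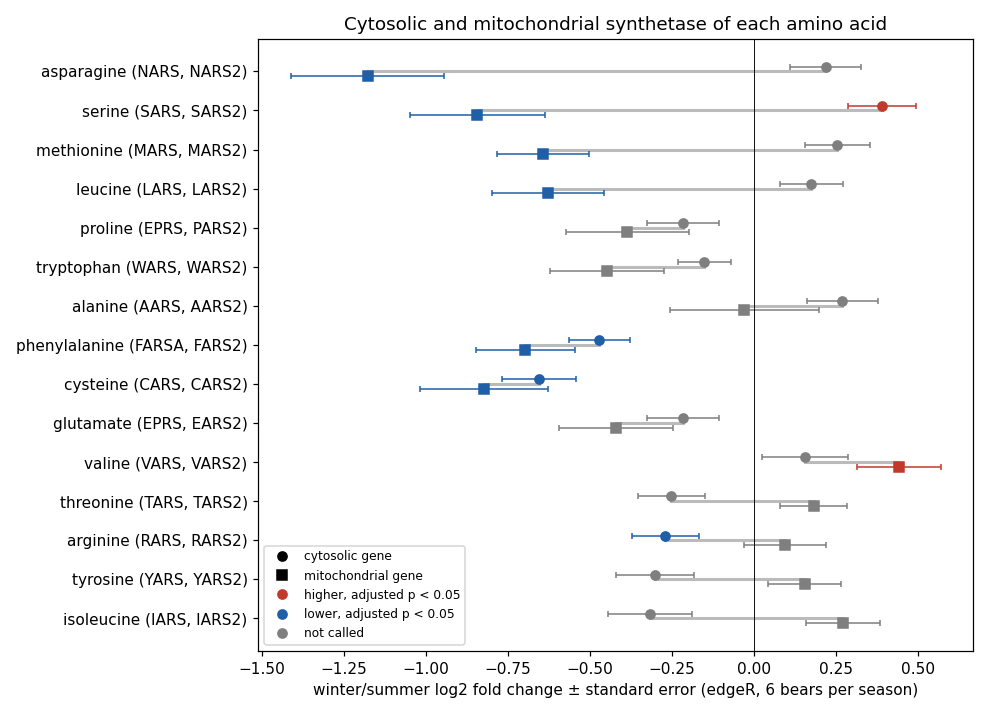
Winter against summer log2 fold change with its standard error (x axis) of the cytosolic (circle) and mitochondrial (square) synthetase gene of 15 amino acids (y axis). Rows are ordered by the median over bears of the within-bear difference between the 2 genes, which can depart from the plotted gap. The difference is widest for asparagine, where NARS is at 0.22 and NARS2 at −1.18, and the order of the symbols is turned for valine, threonine, arginine, tyrosine and isoleucine.

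Genes acting around tRNA charging were counted in the same fit from 4 lists. Charging partners, which correct, modify or carry the loaded tRNA, had 0 of 15 higher and 2 lower (13.3%) in edgeR, where 19.6% and 19.9% of all genes were called. They had 1 higher and 4 lower at an unadjusted p below 0.05, beside 4138 and 4258 of all 17290 genes. In DESeq2 they had 1 higher and 2 lower, beside 3530 and 3621 of all genes. The list had a median log2 fold change of −0.21. EEFSEC, the elongation factor that delivers selenocysteine tRNA, fell by 0.81 on the log2 scale (SE 0.16, adjusted p = 0.00167) in 6 of 6 bears. EEFSEC had only 32 to 105 reads per library. EEF1A1, which carries charged tRNA to the ribosome, fell by 0.56 (SE 0.18, adjusted p = 0.0263) in 5 of 6 bears. EEF1A2, another form of this factor, was not called, at 0.28 (SE 0.22, adjusted p = 0.335), above 0 in 5 of 6 bears. It had 31340 to 113887 reads per library, against 7674 to 20114 for EEF1A1. The value of EEF1A1 is uncertain because this gene has many near-identical copies among which reads can be split, and its call was lost without bear 1305, 1316 or 1512 (0.0766, 0.103 and 0.0567).

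Genes of tRNA maturation gave 4 of 23 higher and 4 lower (17.4% each, beside 19.6% and 19.9% of all genes), with a median of −0.15. Higher were ELAC1 (0.69), an enzyme that trims the 3′ end of tRNA, and the export receptors XPOT (0.55) and XPO5 (0.45), among others. Lower were KIAA0391 (−0.57) and HSD17B10 (−0.54), which encode subunits of mitochondrial RNase P, and RPP30 (−0.43), a subunit of RNase P. Also lower was TRNT1 (−0.46), which adds the terminal CCA to which the amino acid is later attached. TRMT10C, a further subunit of mitochondrial RNase P, was not called, at 0.02 (SE 0.12, adjusted p = 0.892). The other RNase P subunit genes in this list were not called either. KIAA0391 lost its call without bear 1317 or 1512 (adjusted p = 0.0592 and 0.0619), and RPP30 without bear 1305, 1511 or 1512 (0.0865, 0.0642 and 0.086).

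RNA polymerase III, which transcribes the tRNA genes, was covered by 22 genes, for its subunits, its initiation factors and its regulator MAF1. Of these, 6 were higher (27.3%, beside 19.6% of all genes) and 5 lower (22.7%, beside 19.9%), with a median of −0.06. MAF1 was not called. The largest rise was in the subunit POLR3F (0.99, SE 0.11, adjusted p = 3.36e-05) and the largest decrease in POLR3GL (−1.09, SE 0.16, adjusted p = 0.000181), a subunit that exists in alternative forms. The core subunit POLR3B was lower (−0.82), and BRF1 (0.67) and GTF3C2 (0.57), of the initiation factors, were higher. BRF1 was higher in winter in 5 of 6 bears, and bear 1509 was at −0.99. In the replicate block fit BRF1 and POLR3A (0.33) lost their calls (adjusted p = 0.0587 and 0.0543), which left 4 higher and 5 lower. BRF1 also lost it without bear 1305, 1316, 1317, 1511 or 1512 (0.0681 to 0.0929), and POLR3A with library totals (0.191), without the read minimum (0.0646) and without bear 1305, 1316, 1509 or 1512 (0.0575 to 0.138). Without bear 1305 the number of higher genes was 3, in a fit that called 2541 of all 16860 genes higher.

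**Figure D4:**
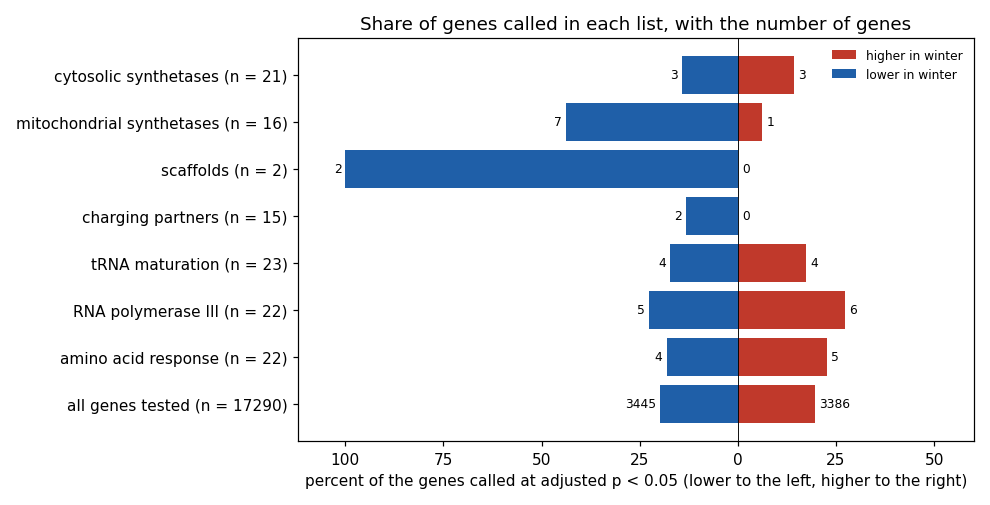
Percent of the genes called lower (to the left of 0) and higher (to the right) in winter at an adjusted p below 0.05 (x axis) in each group (y axis), with the number of genes beside each bar. The bar of mitochondrial synthetases reaches 43.8% on the lower side, against 19.9% for all 17290 genes tested.

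Uncharged tRNA is sensed by the kinase GCN2 (gene EIF2AK4), which acts through eIF2 on the translation of ATF4, a transcription factor of genes for amino acid supply. Synthetase genes of the cytosol are known among its targets. Of 22 genes of this amino acid response, 5 were higher (22.7%, beside 19.6% of all genes) and 4 lower (18.2%, beside 19.9%), so both shares were near those of all genes, and the median log2 fold change was 0.06.

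EIF2AK4 itself had 0.25 (SE 0.13, adjusted p = 0.143) and was not called in any alternative. ATF4 had 7.79, 7.99 and 8.58 log2 CPM in summer and 8.39, 8.67 and 8.95 in winter. The seasons overlapped, and all 6 bears were higher in winter, by 0.37 to 0.81. ATF4 mRNA rose 1.51-fold (log2 fold change 0.59, SE 0.14, adjusted p = 0.00476). The other genes called higher were DDIT3 (0.91) and CEBPG (0.64), transcription factors that pair with ATF4, TRIB3 (0.66), an inhibitor of ATF4, and IMPACT (0.90), an inhibitor of GCN2. TRIB3 had only 32 to 110 reads per library. CEBPG lost its call with library totals (adjusted p = 0.0527) and without bear 1305, 1316, 1317 or 1512 (0.0581 to 0.09).

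The genes called lower encode enzymes of amino acid synthesis. They were CTH (−2.25), of cysteine synthesis, PHGDH (−1.29) and PSAT1 (−0.76), of serine synthesis, and ASNS (−0.44), of asparagine synthesis. CTH had only 2 to 55 reads per library. PSAT1 lost its call in the replicate block fit (adjusted p = 0.0603), without the read minimum (0.051) and without bear 1305, 1316, 1317, 1509 or 1512 (0.0635 to 0.157), PHGDH without bear 1316 (0.0877) and ASNS without bear 1305, 1316, 1317, 1511 or 1512 (0.0569 to 0.12). Without bear 1316 the number of genes called lower was 1, and without bear 1305 or 1317 it was 2. Over all genes, these fits called 2838 of 16912, 2715 of 16860 and 2834 of 16960 lower, respectively. The cytosolic synthetases of the corresponding amino acids were CARS lower, SARS higher and NARS not called.

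**Figure D5:**
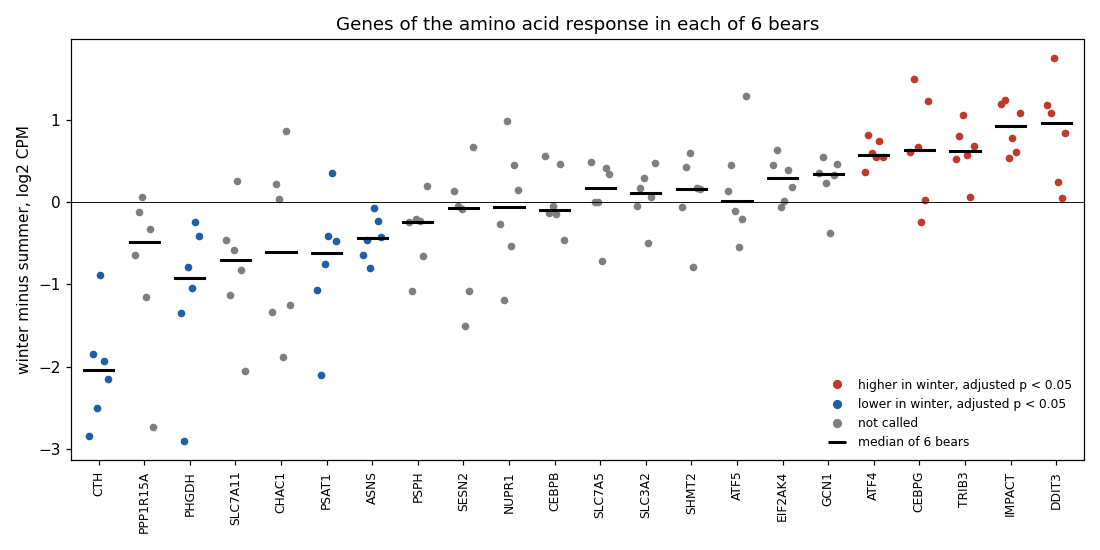
Winter minus summer difference in log2 CPM (y axis) of 22 genes of the amino acid response (x axis) in each of 6 bears, with points for bears, bars for medians and colours for the call. CTH lies below 0 and ATF4 and IMPACT above 0 in all bears, and several genes without a call spread over more than 2 log2 units.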

How the data were processed

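The deposited values are raw read counts per gene, which the authors obtained with TopHat2 2.1.1 and Bowtie2 (2.2.9 in the submitters' processing notes, another version in the methods) on ASM358476v1 (single reads of 50 bases, at most 3 mismatches) and strand-specific featureCounts 1.6.2, and did not normalize. Which library ran on which lane is not given in the labels, and lane effects were not tested. Genes needed 30 reads summed over the 12 libraries. R 4.3.3 and edgeR 4.0.16 (TMM, glmQLFit, glmQLFTest) had season as sole term, with Benjamini-Hochberg adjustment over 17290 genes. Levels are log2 CPM with a prior count of 2. In tests on simulated data for this comparison the fits were checked against known fold changes. Alternatives were the bear as a replicate block, DESeq2 1.42.0 with and without it, RLE normalization, library totals, no filter, each bear left out, and an adjusted p below 0.01 with fold limits of 1.3 and 0.77. Members and lists were chosen with earlier results of these data known. Named were every called member, with levels per library for the 4 largest cytosolic and mitochondrial changes, all rises, AIMP1, AIMP2, GARS and KARS, and from each other list up to 5 called genes, EIF2AK4 and ATF4. Further genes were named after their values were seen. Libraries of a bear share the animal, by the study's methods, and after subtracting season means they correlated at 0.0903 to 0.344 (other bears: median −0.0634, at most 0.142). No library was a copy of another (lowest chi-square per gene 42.3). Reads of near-identical gene copies may be split among them. A mitochondrial and a tRNA maturation gene enter the counts and are not reported singly here. Promoter sequences were not analysed here.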

Additional observations from a re-analysis of the deposited data

Results flagged for a closer look

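In 6 of the 78 groups of 6 libraries (39 genes in 2 seasons), a library lay far from the other 5 by Dixon's criterion, which chance meets in about 1 of 20 groups. Bear 1316 had the lowest EPRS level in both seasons, at 6.71 log2 CPM in summer (others 7.13 to 7.35) and 6.75 in winter (others 6.95 to 7.03). The winter library of bear 1509, which stood apart on the principal components, had the highest AIMP1 level, 5.46 (others 4.84 to 5.04), and the lowest VARS level, 4.88 (others 5.44 to 5.73). AARS was highest in the winter library of bear 1305, at 7.27 (others 6.81 to 6.97). HARS was lowest in the summer library of bear 1512, at 4.47 (others 4.59 to 4.66). The causes were not tested.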

How the results depend on the processing

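Over the alternatives other than the stricter threshold, 432 of 468 values of single members kept their direction and their side of the threshold, 18 passed it, 13 lost it and 5 changed sign without a call. With DESeq2, 5 cytosolic genes were higher and 5 lower, 2 mitochondrial genes were higher and 8 lower, and 1 charging partner was higher. DESeq2 called 3530 of all 17290 genes higher and 3621 lower. The replicate block for the bear, DESeq2 with this block and RLE normalization each gave 1 charging partner higher. Of all 17290 genes, these fits called 3392, 3251 and 3453 higher, respectively. The block changed no call among members other than those of RARS, YARS and AARS. With library totals, which moved the median log2 fold change of all genes to −0.08, 0 mitochondrial genes were higher, 9 were lower and 3 charging partners were lower. Of all 17290 genes, 2706 were then called higher and 3789 lower. At an adjusted p below 0.01 with fold limits, 0 mitochondrial genes were higher, 1 charging partner was lower, 2 genes of tRNA maturation were lower, 3 genes of RNA polymerase III were higher and 2 lower, and 3 genes of the amino acid response were higher and 1 lower. Leaving out each bear gave 2 to 5 cytosolic genes lower (5 without bear 1316), 0 to 2 mitochondrial genes higher (0 without 1305 or 1316, 2 without 1317), 1 to 2 charging partners lower (1 without 1305, 1316 or 1512), 3 to 5 genes of RNA polymerase III higher (3 without 1305), 1 to 3 of the amino acid response lower (1 without 1316, 2 without 1305 or 1317), and 5 to 8 amino acids with a higher cytosolic to mitochondrial ratio in all bears (8 without bear 1511). Calls over all genes also varied between the fits with a bear left out, from 2541 to 3195 higher and from 2715 to 3300 lower. Both were lowest without bear 1305 (16860 genes) and highest without bear 1509 (16764 genes). The fit with all bears called 3386 and 3445 of 17290. The sign changed for FARSB (−0.0049) and HARS (−0.052) with library totals. Leaving out each bear gave log2 fold changes of −0.012 (without 1317) to 0.077 for HARS and of −0.11 to 0.14 (without 1509) for AARS2. The causes were not tested. With 6 bears, and 42 to 156 reads for genes such as SARS2, small differences of mitochondrial genes were not detectable at this depth.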

Other observations

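KARS held 33.1% to 40.04% of the reads of all members in summer and 40.4% to 43.9% in winter, a share of reads that also depends on gene length. Without KARS the cytosolic synthetases summed to 1076 to 1553 CPM of the library total in summer and 1224 to 1435 in winter. This sum was higher in 3 bears and lower in 3, again without the normalization applied to the levels of single genes.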
